A study of Mus musculus with 30 samples.

Results

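The genes described here are the nuclear genes of oxidative phosphorylation beyond complex I, that is, the subunits and assembly factors of respiratory complexes II, III and IV, of the carrier cytochrome c and of the ATP synthase, complex V. They were chosen by name: protein-coding genes whose symbols are those of the 4 succinate dehydrogenase subunits and Cyc1 and Cycs, or begin with Sdhaf, Uqcr, Uqcc, Cox and a digit, or Atp5. Of 29861 genes listed, 65 carried such a symbol, and 63 of these reached 1 TPM (a level scaled by transcript length and library total) in at least 3 of the 30 libraries. The other 2, the testis forms Cox7b2 and Cox8c, stayed under that level, with Cox7b2 at no more than 0.239 TPM and Cox8c listed at 0 in all libraries. The 63 genes comprised 8 of complex II (4 subunits and 4 assembly factors), 12 of complex III (9 and 3), cytochrome c, 25 of complex IV (15 and 10) and 17 of complex V (16 and 1). They lie on 19 chromosomes.

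RNA was sequenced from CCG-HTA-1, a primary fibroblast line from the tails of UMHet3 mice, a genetically mixed stock, at passage 4 and 48 hours after a compound or the solvent DMSO was added. The 8 compounds, each with 3 libraries against 6 of DMSO, were Antimycin A, an inhibitor of complex III, Dihydrorotenone, an inhibitor of complex I, Diphenyleneiodonium Cl, an inhibitor of flavin enzymes, Cardamonin, a plant chalcone, a compound labelled BerberineA, AEG 3482, the potassium channel blocker Clofilium tosylate, and Podofilox, which blocks tubulin polymerisation. Donor mice were 5 to 8 weeks old, except for the first Dihydrorotenone library, labelled 8 to 11 weeks, and no group carried a genetic change. All libraries came from 1 line, and nothing in the labels says that they came from separate cultures, so p-values measure only the spread between these libraries, which may be technical.

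The respiratory chain passes electrons from succinate (complex II) and from ubiquinol (complex III) through cytochrome c to oxygen (complex IV), and the proton gradient so built drives the ATP synthase (complex V). Complex II is encoded by nuclear genes alone. Complexes III, IV and V each hold subunits made from mitochondrial DNA, so nuclear and mitochondrial transcripts must both be supplied. Assembly factors are not part of the finished enzyme: they insert haem, copper, flavin or iron-sulfur clusters, or help single subunits fold. Several complex IV subunits exist as a common form and a form known from muscle, lung or testis.

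Across the libraries the members' summed TPM was 1.04% to 1.26% of that of the listed genes, and mitochondrially encoded genes took 3.64% to 6.69%. All 10 fibroblast markers were present, with summed levels of 10188 to 11775 TPM in DMSO and 3939 to 5002 TPM in Cardamonin, the lowest of the 9 groups. Summed markers of other cell types were at or below 8.90 TPM in all libraries except those of macrophages. These summed to 19.3 to 46.6 TPM, highest in Cardamonin at 30.5 to 46.6 TPM. Of the 6 macrophage markers, 4 (Cd68, Adgre1, Csf1r and Aif1) averaged at least 1 TPM in DMSO, and 3 did in Cardamonin. Ptprc and Itgam were under 1 TPM throughout. The part of these marker levels in the results below was not tested. TPM carries no sequencing depth, so depth is unknown and no counting intervals are given. Library numbers ran consecutively within each group, so group and library batch cannot be told apart.

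In DMSO the mean levels ran from 0.0934 to 589 TPM, a unit that takes transcript length out of the comparison between genes. The highest were complex IV subunits, with Cox8a at 589 ± 38.7 TPM (SD, n = 6), Cox7c at 568 TPM and Cox4i1 at 547 TPM, followed by the catalytic ATP synthase subunit Atp5b at 513 TPM. Of the 63 genes, 38 were above 100 TPM, 17 between 10 and 100, 5 between 1 and 10, and 3 below 1 TPM. Those below 1 TPM were tissue forms of complex IV subunits: Cox6a2 at 0.0934 TPM, Cox7a1 at 0.696 TPM and Cox4i2 at 0.880 TPM. The testis form Cox6b2 differed from them, at 46.7 ± 5.17 TPM. Cytochrome c itself, Cycs, stood at 21.1 ± 3.75 TPM. Assembly factors ranged from 1.99 TPM for Sdhaf3 to 242 TPM for Cox7a2l.

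Promoter windows of 300 bases (250 before and 50 after the gene start) from RefSeq, build GRCm38.p6, were found for 48 of the 63 genes, 52 windows in all because some genes have more than 1 start. They were searched on both strands for the motifs of factors known to act on respiratory chain genes: NRF1 (nuclear respiratory factor 1), the ETS family that includes GABP, and YY1. The 10-base NRF1 sequence, shown in capitals in the sites printed here, was in 4 member windows (7.69%), against 0.971% of the 32851 windows of all genes. Its relaxed form, with any base at the fifth place and the strict form included, was in 13 (25% against 4.60%), the ETS core CCGGAAG in 21 (40.4% against 8.86%) and the YY1 sequence AAGATGGCG in 3 (5.77% against 1.40%). A match describes letters in the window and says nothing of binding. The 4 strict NRF1 matches are printed with 10 bases on each side, 5′ to 3′ on the gene's strand, with the match in capitals, since this motif's share among the members stood highest over its share among all genes.
Uqcrc1 (chr9:108936668-108936697, plus strand): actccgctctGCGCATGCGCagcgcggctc
Cox6a1 (chr5:115349101-115349130, minus strand): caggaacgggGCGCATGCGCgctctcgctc
Atp5g2 (chr15:102671070-102671099, minus strand): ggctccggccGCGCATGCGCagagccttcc
Atp5k (chr5:108434430-108434459, minus strand): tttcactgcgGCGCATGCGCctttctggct

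The 250 bases before the start are printed for 3 genes whose changes stand out below: Cycs and Cox6b2, which went in opposite directions in Cardamonin, and Uqcc2, which had the highest log2 fold change of the 63 genes in AEG 3482. The Uqcc2 stretch holds 1 match to the relaxed NRF1 pattern, in capitals. The searched letters are not in the windows of Cycs and Cox6b2.
Cycs (chr6:50566570-50566819, minus strand): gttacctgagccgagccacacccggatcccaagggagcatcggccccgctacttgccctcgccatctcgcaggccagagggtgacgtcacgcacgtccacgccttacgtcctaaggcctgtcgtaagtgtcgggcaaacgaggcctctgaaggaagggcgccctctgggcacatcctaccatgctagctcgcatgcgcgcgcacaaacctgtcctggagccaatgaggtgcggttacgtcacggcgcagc
Cox6b2 (chr7:4753095-4753344, minus strand): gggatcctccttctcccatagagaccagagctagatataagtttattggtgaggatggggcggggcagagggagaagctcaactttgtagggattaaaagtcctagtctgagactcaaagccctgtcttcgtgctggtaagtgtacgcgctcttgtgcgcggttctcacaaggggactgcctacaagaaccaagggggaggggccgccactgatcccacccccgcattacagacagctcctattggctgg
Uqcc2 (chr17:27133892-27134141, minus strand): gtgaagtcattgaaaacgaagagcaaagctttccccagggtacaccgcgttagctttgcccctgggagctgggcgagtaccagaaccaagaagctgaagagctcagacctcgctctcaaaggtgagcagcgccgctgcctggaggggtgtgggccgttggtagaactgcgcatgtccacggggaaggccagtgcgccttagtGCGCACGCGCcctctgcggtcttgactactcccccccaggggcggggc

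The comparisons with DMSO ask which of these genes each compound changed. A change means an adjusted limma p below 0.05, adjusted over all 13644 genes tested, and log2 fold changes are differences of mean log2(TPM + 1), which understate the change of low genes. Cardamonin and AEG 3482 changed the most members. Cardamonin raised 15 and lowered 24 (of all genes tested, 70.3% changed), and AEG 3482 raised 15 and lowered 28 (68.1%). Podofilox raised 7 and lowered 19 (46.2%), and Antimycin A raised 19 and lowered 4 (37.3%). Clofilium tosylate raised 6 and lowered 4 (23.4%), Diphenyleneiodonium Cl raised 3 and lowered 6 (25.7%), Dihydrorotenone raised 5 and lowered 2 (14.4%), and BerberineA raised 4 and lowered 1 (21.7%). Read against the background, the share of members changed was near that of all genes in AEG 3482 and Antimycin A and below it in the other 6 compounds. In bulk RNA, fewer cells that express a gene and less of its RNA per cell cannot be told apart.

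The direction was less even. Among all genes 41.3% were higher and 26.8% lower in AEG 3482, and 37.3% and 33.0% in Cardamonin, while more members were lower than higher in both. In Podofilox 26.2% of all genes were higher and 20% lower, in Antimycin A 21.8% and 15.5%, in Clofilium tosylate 10.9% and 12.5%, in Diphenyleneiodonium Cl 14.0% and 11.7%, in Dihydrorotenone 4.95% and 9.43%, and in BerberineA 12.6% and 9.16%. The members' median log2 fold change was −0.08 in AEG 3482, where that of all genes was 0.10, −0.08 in Podofilox (all genes 0.04), −0.05 in Cardamonin (0.03) and 0.05 in Antimycin A (0.03). In the other 4 compounds it lay between −0.01 and 0.04. Median-ratio scaling removes a shift of all genes by its design, so their median of −0.0079 in AEG 3482 after it is no test of that shift. All of these comparisons share the DMSO libraries.

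Single genes varied more than the medians did. Of the 63 genes, 7 passed the test in no compound, 11 were called only higher, 24 only lower, and 21 higher in some compounds and lower in others. Cox6b2, Cox8b, Cox6a2 and Cycs each spanned over 1 log2 unit between the compounds with their highest and lowest values. In Cardamonin the 3 libraries of 22 members lay wholly below the DMSO libraries and those of 10 wholly above, and in AEG 3482 the counts were 21 and 12. Over all genes tested, 61.6% and 58.9% had groups that did not overlap in these 2 comparisons.

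**Figure D1:**
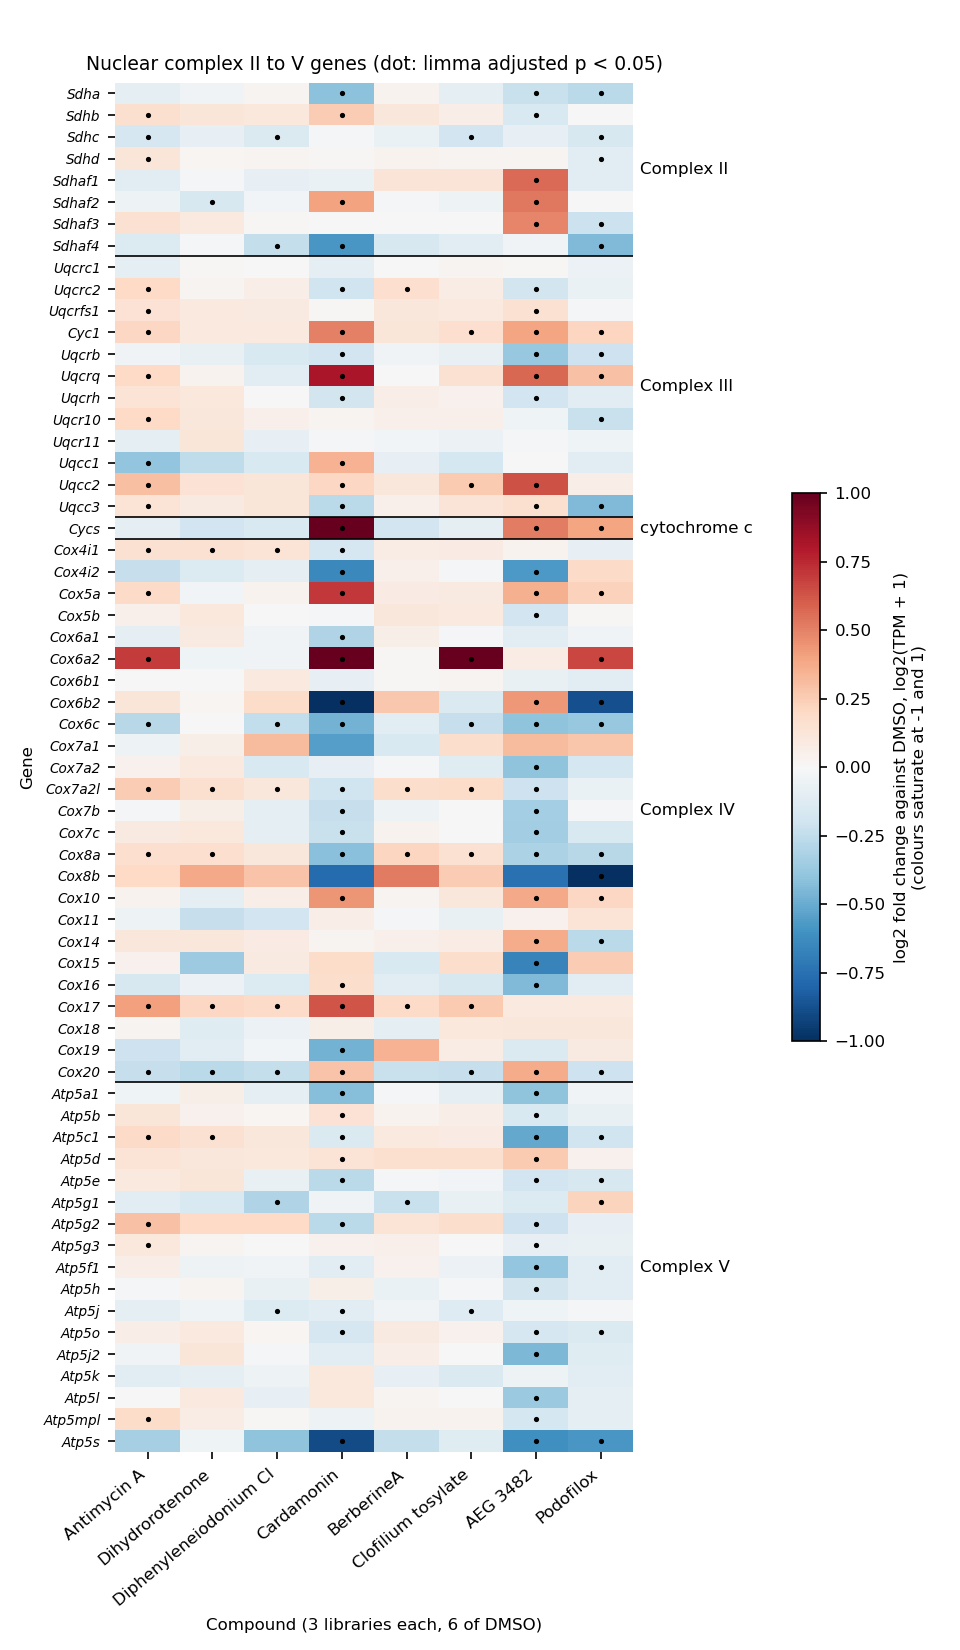
Log2 fold change against DMSO (colour, on the log2(TPM + 1) scale) of the 63 genes (by complex) in 8 compounds, with a mark where the limma adjusted p was below 0.05. Cardamonin and AEG 3482 hold the most marks, 39 and 43, and most complex V genes are lower in AEG 3482.

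Counts in the comparisons with fewer calls rested on single libraries and on the scaling. Without Antimycin A replicate 2 the 23 changed members became 15, without Dihydrorotenone replicate 1 the 7 became 1, and without Diphenyleneiodonium Cl replicate 1 or 2 the 9 became 4 or 3. That Dihydrorotenone library is the one labelled with donors of 8 to 11 weeks, and the part of donor age was not tested. Clofilium tosylate went from 10 to 4 without its replicate 2, Podofilox from 26 to 17 without its replicate 1, and BerberineA from 5 to 8 without DMSO replicate 6. Median-ratio scaling gave 8 higher and 4 lower members in Antimycin A, 5 and 1 in Dihydrorotenone, 0 and 6 in Diphenyleneiodonium Cl and 1 and 2 in BerberineA. Quantile normalization gave 10 and 6 in Antimycin A, 3 and 0 in Dihydrorotenone, 1 and 6 in Diphenyleneiodonium Cl and 11 and 37 in AEG 3482. Rescaling without the 20 most abundant genes gave 14 and 8 in Antimycin A, 1 and 8 in Diphenyleneiodonium Cl and 4 and 3 in BerberineA, and rescaling over nuclear protein-coding genes gave 6 and 1 in Dihydrorotenone, 7 and 5 in Diphenyleneiodonium Cl and 9 and 3 in Clofilium tosylate. In Cardamonin and Podofilox none of the 4 scalings moved the share of higher calls by more than 10 percentage points.

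The subunits of complex II, succinate dehydrogenase, went apart in Cardamonin. Sdha, the flavin-bearing catalytic subunit, had 113, 96.3 and 114 TPM there, against 135, 139.7 and 164 TPM (lowest, median and highest) in DMSO. All 3 values lay below the DMSO range, −0.41 ± 0.05 on the log2 scale (fold change with its SE, adjusted p of limma = 2.2e-07). Sdhb, the iron-sulfur subunit that takes electrons from it, lay above, with 121, 112 and 125 TPM against 90.9, 101 and 107 TPM (0.25 ± 0.04, adjusted p = 1.18e-05). In AEG 3482 both fell, Sdha by 0.23 and Sdhb by 0.15 on the log2 scale. Podofilox lowered Sdha by 0.27 and 4 further complex II genes, 5 of 8 in all.

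Sdhc, which anchors the enzyme in the inner membrane, fell in 4 compounds. It had 169, 177 and 178 TPM in Antimycin A and 178, 163 and 175 TPM in Clofilium tosylate, against 188, 193 and 209.9 TPM in DMSO (−0.17 and −0.19, each ± 0.05). These libraries were below the DMSO range, and those of Podofilox (−0.16) and Diphenyleneiodonium Cl (−0.14) overlapped it. The calls ended without Antimycin A replicate 1 (adjusted p = 0.0567), Clofilium tosylate replicate 2 (0.0536), Podofilox replicate 3 (0.0836) and Diphenyleneiodonium Cl replicate 1 or 2 (0.125 and 0.208).

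Of the 4 assembly factors of complex II, 3 rose in AEG 3482, where 41.3% of all genes were higher. They were Sdhaf2, which helps to attach flavin to Sdha, and Sdhaf1 and Sdhaf3, which serve the iron-sulfur clusters of Sdhb. Sdhaf2 reached 27.6, 28.6 and 28.8 TPM there and 26.0, 25.6 and 26.3 TPM in Cardamonin, above the 18.3, 19.4 and 20.9 TPM of DMSO (0.52 and 0.40, each ± 0.04). Sdhaf1 reached 6.82, 7.19 and 7.02 TPM in AEG 3482, against 3.89, 4.25 and 5.50 TPM in DMSO (0.57 ± 0.08, adjusted p = 8.38e-07). Its Cardamonin libraries, at 4.13, 3.99 and 4.37 TPM, stayed in the DMSO range. Sdhaf2 fell in Dihydrorotenone (16.6, 17.6 and 17.5 TPM, −0.16 ± 0.04, adjusted p = 0.00718), a call lost without replicate 1 of that compound (0.063) and under quantile normalization (0.0566). Sdhaf1 shares 69.9% of its 31-mers (stretches of 31 bases) with other genes, first of all E130208F15Rik, an antisense neighbour listed at 0 in every library, so its reads may be divided wrongly.

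Sdhaf4, a chaperone of flavin-loaded Sdha, showed another pattern. It had 38.4, 33.1 and 33.1 TPM in Cardamonin and 38.9, 38.4 and 38.3 TPM in Podofilox, below the 47.2, 51.9 and 59.5 TPM of DMSO (−0.58 ± 0.06, adjusted p = 9.49e-09, and −0.44 ± 0.06). In AEG 3482 it stayed in the DMSO range, at 52.5, 49.5 and 52.4 TPM. Its fall of 0.24 in Diphenyleneiodonium Cl (adjusted p = 0.00644) was lost without replicate 2 of that compound (0.0508).

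In complex III, the cytochrome bc1 complex, the gene with the highest fold change was Uqcrq, a small subunit next to cytochrome b (chromosome 11, positions 53427922 to 53430831, GRCm38). It had 447, 405 and 456 TPM in Cardamonin and 353, 386 and 367 TPM in AEG 3482, against 214, 244 and 285 TPM in DMSO. Both groups lay wholly above DMSO, at 0.82 ± 0.06 (adjusted p = 1.92e-12) and 0.58 ± 0.06 (2.12e-09). Cyc1, the haem-bearing cytochrome c1, had 107, 107 and 112 TPM in Cardamonin and 96.2, 103 and 104 TPM in AEG 3482, against 67.0, 74.9 and 89.5 TPM (0.50 and 0.40, each ± 0.06). Other subunits of the same complex fell in these compounds. Uqcrb had 169.7, 159 and 157 TPM in AEG 3482 against 200.0, 207 and 227 TPM (−0.38 ± 0.06) and fell by 0.19 in Cardamonin. The hinge protein Uqcrh fell by 0.19 and 0.18, and the core protein Uqcrc2 by 0.19 and 0.20. Uqcrb shares 34.8% of its 31-mers with other genes. The core protein Uqcrc1 passed the test in no compound.

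Antimycin A, which binds this complex, raised 7 of its 12 genes and lowered 1, and the rises were small. Of all genes, 21.8% were higher and 15.5% lower in this compound. The subunits Uqcrc2, Uqcrfs1, Cyc1, Uqcrq and Uqcr10 rose by 0.14 to 0.21 on the log2 scale. Uqcrc2 had 101, 99.3 and 92.3 TPM against 79.3, 85.7 and 88.9 TPM in DMSO (0.20 ± 0.05, adjusted p = 0.0014), all above the DMSO range. Uqcrfs1, the Rieske iron-sulfur protein, had 68.3, 68.3 and 66.6 TPM against 58.3, 62.0 and 63.3 TPM (0.14 ± 0.05, adjusted p = 0.0385). Of the 7 rises, those of Uqcrfs1, Uqcrq and Uqcc3 were lost under median-ratio scaling (adjusted p = 0.171, 0.0556 and 0.148). That scaling gave 8 higher members in Antimycin A in place of 19. The Uqcr10 call was lost under it as well, and those of Uqcc2, Cyc1 and Uqcrc2 were kept. Uqcrfs1 was also lost without any 1 Antimycin A library (0.0659 to 0.110), without DMSO replicate 2, 4 or 5 (0.0501 to 0.0708) and with the replicate block (0.0925). Quantile normalization ended the Uqcrfs1 call as well (0.139). Uqcc3 was also lost without Antimycin A replicate 2 or 3 (0.0827 and 0.146), under quantile normalization (0.205) and with the block (0.133). Dihydrorotenone and Diphenyleneiodonium Cl raised or lowered 0 of the 12 genes by limma at an adjusted p below 0.05. The mitochondrially encoded partner of these subunits, mt-Cytb, was 3921 ± 291 TPM in DMSO and 1698 ± 18.5 TPM in Antimycin A (SD), a log2 fold change of −1.20 (adjusted p = 2.06e-13).

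Among the complex III assembly factors, Uqcc2, which acts on newly made cytochrome b, was highest in AEG 3482. Its libraries there held 284, 305 and 331 TPM, against 156, 199 and 229.9 TPM in DMSO (0.64 ± 0.08, adjusted p = 1.71e-07). Antimycin A libraries, at 239, 245 and 239 TPM, also lay above DMSO (0.30 ± 0.08, adjusted p = 0.0054), as did those of Clofilium tosylate, at 240.2, 231 and 234 TPM (0.26 ± 0.08), a call lost without any 1 library of that compound (adjusted p of 0.0525 to 0.0741). Uqcc3 had 31.7, 33.2 and 32.5 TPM in Podofilox and 35.7, 36.1 and 38.0 TPM in Cardamonin, below the 42.6, 44.5 and 45.4 TPM of DMSO (−0.44 and −0.27, each ± 0.05). Its rise of 0.16 in AEG 3482 became −0.0144 under quantile normalization. Uqcc1 rose in Cardamonin (34.8, 34.1 and 41.5 TPM against 24.4, 29.0 and 33.5 TPM, 0.35 ± 0.10) and fell in Antimycin A (20.2, 19.6 and 25.2 TPM, −0.40 ± 0.10), where its libraries overlapped those of DMSO.

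Cycs, the somatic cytochrome c that carries electrons from complex III to IV (chromosome 6, positions 50562563 to 50566538, GRCm38), had the highest fold change against DMSO of the members above 5 TPM. The 3 Cardamonin libraries held 47.4, 41.4 and 41.8 TPM, against 17.3, 20.03 and 27.9 TPM in DMSO, so all lay above the DMSO range (1.02 ± 0.13, adjusted p = 1.05e-07). AEG 3482 libraries held 29.9, 27.8 and 33.2 TPM (0.51 ± 0.13, adjusted p = 0.00104) and Podofilox libraries 27.1, 30.1 and 26.2 TPM (0.39 ± 0.13, adjusted p = 0.0141). Both overlapped the DMSO range, and the Podofilox call was lost without its replicate 2 (adjusted p = 0.0736). In the other 5 compounds Cycs did not pass the test.

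Cycs shares 29.4% of its 31-mers with other genes, first of all Gm10053, listed at 39.8 ± 3.53 TPM in DMSO. Gm10053 had 89.0 ± 3.03 TPM in Cardamonin (1.15 ± 0.08), 54.3 ± 1.99 TPM in AEG 3482 (0.44 ± 0.08) and 54.5 ± 3.33 TPM in Podofilox (0.45 ± 0.08). The division of reads between both genes is therefore uncertain, and each was called higher in these 3 compounds.

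**Figure D2:**
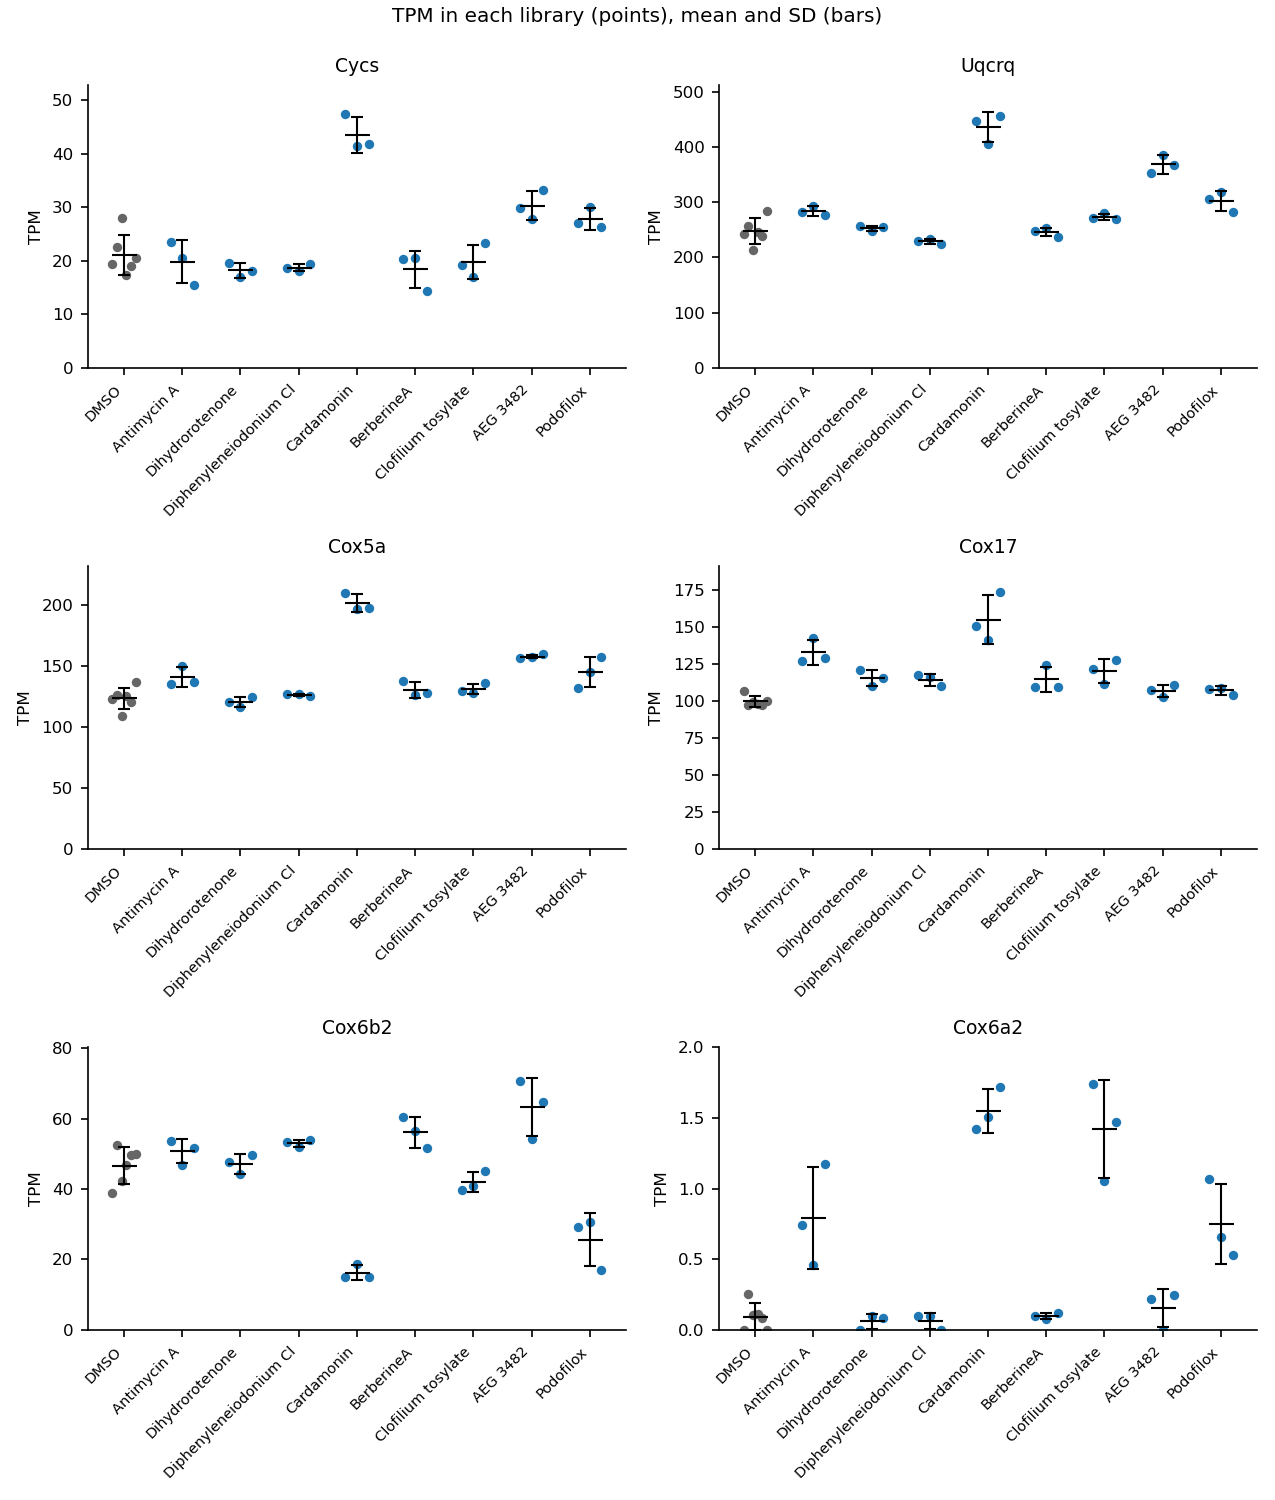
TPM of 6 genes (1 panel each, y axis in TPM) in each library (points) of the 9 groups, with the mean and SD (n = 6 for DMSO and 3 for each compound). Cycs, Uqcrq, Cox5a and Cox17 are highest in Cardamonin, where Cox6b2 is lowest, at 14.9 to 18.8 TPM.

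In complex IV, cytochrome c oxidase, more subunits were lower than higher in 3 compounds: Cardamonin lowered 8 of 15 and raised 2, AEG 3482 lowered 7 and raised 2, and Podofilox lowered 4 and raised 2. In Antimycin A 4 were higher and 1 lower, in Clofilium tosylate 2 and 1, in Diphenyleneiodonium Cl 1 and 1, in Dihydrorotenone 2 and 0, and in BerberineA 1 and 0. The rises in Antimycin A and Clofilium tosylate were near the shares of all genes that were higher there (21.8% and 10.9%). Cox6c fell in 6 of the 8 compounds, all but Dihydrorotenone and BerberineA. It had 339, 331 and 339.6 TPM in Cardamonin, 356, 335 and 370.2 TPM in AEG 3482 and 357, 362 and 360.1 TPM in Podofilox, against 438, 468 and 489 TPM in DMSO. These groups lay below DMSO, with log2 fold changes of −0.47, −0.40 and −0.38, each ± 0.06. Cox6c also fell by 0.27 in Antimycin A, by 0.25 in Diphenyleneiodonium Cl and by 0.23 in Clofilium tosylate, the last a call lost without replicate 2 (adjusted p = 0.0643).

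Cox8a, the most abundant member, had 458, 434 and 426 TPM in Cardamonin, 472, 476 and 466 TPM in AEG 3482 and 491, 507 and 460.1 TPM in Podofilox, all below the 549, 584 and 639.7 TPM of DMSO (−0.42, −0.32 and −0.28, each ± 0.05). In Antimycin A (660.4, 674 and 652 TPM), Dihydrorotenone (663, 666 and 651 TPM) and BerberineA (656, 719 and 672 TPM) it lay above (0.17, 0.17 and 0.21, each ± 0.05). Clofilium tosylate libraries, at 625, 685 and 648 TPM, overlapped DMSO and were called higher (0.15 ± 0.05, adjusted p = 0.0174). Quantile normalization ended these 4 calls (adjusted p = 0.141, 0.131, 0.0539 and 0.0631). Median-ratio scaling ended those in Antimycin A and Clofilium tosylate (0.0544 and 0.0512). The Dihydrorotenone call also ended without its replicate 1 or 2 (0.0549 and 0.0598) and the Clofilium tosylate call without its replicate 2 (0.142). Cox7b and Cox7c, small subunits that span the membrane, fell in Cardamonin and AEG 3482 by 0.22 to 0.35.

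Cox4i1, the common form of subunit 4, was called higher in 3 compounds and lower in Cardamonin (−0.17 ± 0.04). It had 597, 604 and 594 TPM in Diphenyleneiodonium Cl and 632, 599 and 591 TPM in Dihydrorotenone, just above the 499.3, 548 and 590.3 TPM of DMSO (0.13 and 0.15, each ± 0.04), and the Antimycin A libraries overlapped DMSO (0.15). Each of these 4 calls ended under quantile normalization (adjusted p of 0.105 to 0.428). The rises also ended without Dihydrorotenone replicate 1 (0.120), Antimycin A replicate 2 (0.0691), DMSO replicate 3 for Diphenyleneiodonium Cl (0.0516) or any 1 Diphenyleneiodonium Cl library (0.0570 to 0.0844).

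Cox5a, a matrix-side subunit, was called higher in 4 compounds and lower in 0. It had 210.4, 197 and 198 TPM in Cardamonin and 157, 157 and 159.7 TPM in AEG 3482, against 109, 124 and 137 TPM in DMSO. Both groups lay above the DMSO range (0.71 ± 0.05, adjusted p = 1.03e-11, and 0.36 ± 0.05, adjusted p = 2.33e-06). Podofilox libraries, at 132, 145 and 157 TPM, overlapped it (0.23 ± 0.05, adjusted p = 0.00102). So did those of Antimycin A, at 135, 150.2 and 137 TPM (0.19 ± 0.05, adjusted p = 0.00703), a call lost under median-ratio scaling (0.0672), under quantile normalization (0.0628) and without Antimycin A replicate 2 (0.0762). Cox5b was called only in AEG 3482, where it fell by 0.19, and not without replicate 1 or 2 of AEG 3482 (adjusted p = 0.0757 and 0.114).

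The paired forms of the subunits differed in which form changed. Cox6b2 (chromosome 7, positions 4751792 to 4753094, GRCm38), the testis form of subunit 6B, had 15.1, 18.8 and 14.9 TPM in Cardamonin and 29.3, 30.7 and 17.0 TPM in Podofilox, against 38.9, 48.2 and 52.5 TPM in DMSO. Both groups lay below DMSO (−1.46 ± 0.13, adjusted p = 1.12e-10, and −0.88 ± 0.13, adjusted p = 2.62e-06). In AEG 3482 it lay above, at 70.8, 54.3 and 64.9 TPM (0.43 ± 0.13, adjusted p = 0.00403), a call lost under quantile normalization (0.26, adjusted p = 0.0812). The common form Cox6b1, at 211, 232 and 249 TPM in DMSO, passed the test in no compound. The share of Cox6b2 in the summed TPM of both forms was 16.8 ± 1.69% in DMSO, 6.98 ± 1.16% in Cardamonin, 10.5 ± 2.39% in Podofilox and 22.3 ± 2.40% in AEG 3482 (SD).

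Cox6a2, the heart and skeletal muscle form of subunit 6A, was near 0 in DMSO, at 0.00, 0.0950 and 0.256 TPM. It was above that range in Cardamonin (1.42, 1.51 and 1.72 TPM), Clofilium tosylate (1.74, 1.05 and 1.47 TPM), Antimycin A (0.744, 0.456 and 1.17 TPM) and Podofilox (1.07, 0.656 and 0.526 TPM). The log2 fold changes were 1.22, 1.14, 0.70 and 0.67, each ± 0.12. Cox6a2 passed the filter through 8 libraries of these compounds and 0 of DMSO, so it had to differ, and these values are a description with no test, although the gene stands among the members counted as raised. In Cardamonin it was 0.419 ± 0.0239% of the TPM of both forms, the rest being Cox6a1, which fell by 0.30. It overlaps Itgad on the opposite strand. All 8 skeletal muscle markers stayed under a mean of 1 TPM, with Myod1 at 0 throughout, and summed to at most 1.85 TPM in any library.

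The other muscle forms did not show these rises. Cox7a1 passed the test in no compound against DMSO. Cox8b, at 0.255, 1.25 and 3.85 TPM in DMSO, was called only in Podofilox (0.00, 0.490 and 0.00 TPM, −1.04 ± 0.38, adjusted p = 0.027), a call lost with a pseudocount of 5 (0.0577), without Podofilox replicate 1 or 3 (0.0985 and 0.0972) and without DMSO replicate 3 or 6 (0.0647 and 0.0568). The alternative subunit 4 form, Cox4i2, was 0.160 ± 0.0405% of both subunit 4 forms in DMSO.

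Cox7a2l, which helps to join complexes III and IV into supercomplexes, rose in some compounds and fell in others. It had 280.0, 309 and 277 TPM in Antimycin A, 278, 269 and 266 TPM in Dihydrorotenone, 272, 262 and 293 TPM in Clofilium tosylate and 284, 267 and 268 TPM in BerberineA, against 233, 243 and 248 TPM in DMSO. These groups lay wholly above DMSO (0.25, 0.16, 0.19 and 0.17, each ± 0.04). Cardamonin libraries, at 208, 215 and 209 TPM, and AEG 3482 libraries, at 208, 206 and 214 TPM, lay below (both −0.20 ± 0.04). Its rises in BerberineA and, of 0.11, in Diphenyleneiodonium Cl were lost under median-ratio scaling (adjusted p = 0.0549 and 0.218).

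Among the factors that build complex IV, Cox17, its copper chaperone (chromosome 16, positions 38346991 to 38352763, GRCm38), rose in 6 compounds. It had 150.4, 141 and 173 TPM in Cardamonin and 127, 142 and 129 TPM in Antimycin A, against 97.3, 98.4 and 107 TPM in DMSO (0.63 and 0.41, each ± 0.06, adjusted p = 2.97e-10 and 2.63e-06). Both groups lay above DMSO. Rises of 0.19 to 0.26 were called in Clofilium tosylate, Dihydrorotenone, BerberineA and Diphenyleneiodonium Cl. Those of the last 3 were lost without Dihydrorotenone replicate 1 (adjusted p = 0.101), BerberineA replicate 2 (0.155) and Diphenyleneiodonium Cl replicate 1 or 2 (0.0659 and 0.0546). In AEG 3482 (107, 103 and 111 TPM) and Podofilox (108, 109 and 104 TPM) Cox17 did not pass the test.

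The haem factors of the complex went opposite ways in AEG 3482. Cox10, which makes haem O, had 5.58, 6.49 and 7.02 TPM there and 6.73, 6.10 and 7.13 TPM in Cardamonin, above the 4.17, 4.62 and 5.09 TPM of DMSO (0.38 and 0.44, each ± 0.07). Podofilox libraries, at 5.73, 5.31 and 5.52 TPM, also lay above (0.21 ± 0.07, adjusted p = 0.0202), a call lost without its replicate 1 or 3 (0.0890 and 0.0546). Cox15, which turns haem O into haem A, had 7.93, 7.12 and 4.71 TPM in AEG 3482, below the 8.23, 11.4 and 13.0 TPM of DMSO (−0.67 ± 0.16, adjusted p = 0.000654), and was not called in Cardamonin. Cox14, which acts on newly made mt-Co1, rose in AEG 3482 (126, 138 and 134 TPM against 91.9, 101 and 118 TPM, 0.37 ± 0.06) and fell in Podofilox (89.7, 90.9 and 75.0 TPM, −0.27 ± 0.06). Cox20 was called in 7 compounds, but 89.2% of its 31-mers are shared with other genes, first of all Hnrnpu on the opposite strand. Cox16 shares 55.2%, first of all with Gm20498, so the values of both are uncertain.

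In complex V, the ATP synthase, AEG 3482 lowered 13 of 17 genes and raised 1 (of all genes, 26.8% lower and 41.3% higher). The one that rose was Atp5d of the central stalk, with 172, 209 and 184 TPM against 148, 155 and 172 TPM (0.26 ± 0.06, adjusted p = 0.000426). Atp5c1, the rotating gamma subunit, had 132, 133 and 130.4 TPM against 177, 190.2 and 199 TPM in DMSO (−0.51 ± 0.04, adjusted p = 1.83e-10). The alpha subunit Atp5a1 had 253, 256 and 241 TPM against 309, 329 and 357 TPM (−0.40 ± 0.04, adjusted p = 8.37e-09). The peripheral stalk subunit Atp5f1 had 121, 125 and 126 TPM against 155, 159.5 and 172 TPM (−0.38 ± 0.04), and the membrane subunit Atp5j2 118, 133 and 127 TPM against 151, 172 and 194 TPM (−0.45 ± 0.07). All of these lower values lay below the DMSO range. The catalytic beta subunit Atp5b fell by 0.16, a call lost without AEG 3482 replicate 3 (adjusted p = 0.0898).

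Cardamonin lowered 8 of the 17 genes and raised 2 (of all genes, 33.0% lower and 37.3% higher). Atp5a1 had 252, 252 and 232 TPM (−0.43 ± 0.04, adjusted p = 2.01e-09), below the DMSO range as in AEG 3482. Atp5b, which forms the catalytic ring with it, had 548, 568 and 582 TPM against 481, 499.8 and 550.1 TPM (0.14 ± 0.05, adjusted p = 0.0143), a rise lost under median-ratio scaling (0.125) and without Cardamonin replicate 3 (0.0708). Atp5s, coupling factor B, fell to 3.32, 2.60 and 4.54 TPM from 5.13, 7.31 and 9.53 TPM (−0.89 ± 0.17, adjusted p = 6.28e-05). Atp5j, coupling factor 6 of the peripheral stalk, fell by 0.12 in Cardamonin, 0.13 in Clofilium tosylate (253, 265 and 262 TPM against 271, 283 and 305 TPM) and 0.13 in Diphenyleneiodonium Cl. All 3 groups lay below DMSO, and the calls ended without Cardamonin replicate 2 (adjusted p = 0.0761), Clofilium tosylate replicate 1 (0.0726) and Diphenyleneiodonium Cl replicate 1 (0.0655). Antimycin A raised 4 of the 17, near the 21.8% of all genes that were higher there, and lowered 0. Atp5c1 had 208, 222 and 216 TPM there (0.19 ± 0.04, adjusted p = 0.00113), above the DMSO range.

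The 3 genes for subunit c of the rotor ring, which encode the same mature protein, did not change alike. In DMSO Atp5g3 gave 57.9% of their summed TPM, Atp5g2 22.3% and Atp5g1 19.8%. Atp5g1 had 83.7, 91.2 and 95.7 TPM in Diphenyleneiodonium Cl and 93.8, 98.1 and 94.7 TPM in BerberineA, below the 99.1, 113 and 125 TPM of DMSO (−0.30 and −0.22, each ± 0.06). In Podofilox it rose to 120.1, 132 and 139 TPM, overlapping DMSO (0.22 ± 0.06, adjusted p = 0.00433), and was 23.3% of the sum. Atp5g2 had 96.0, 105 and 111 TPM in Cardamonin against 111, 129.6 and 136 TPM (−0.27 ± 0.09, adjusted p = 0.0122), a call lost without Cardamonin replicate 1 (0.0838). In Antimycin A it went the other way, to 152, 172 and 139 TPM, above the DMSO range (0.29 ± 0.09, adjusted p = 0.0134), a call lost without Antimycin A replicate 2 (0.123) and with the replicate block (0.113). In AEG 3482, at 114, 88.8 and 126 TPM, it was called lower (−0.21, adjusted p = 0.0481), but not without AEG 3482 replicate 1 or 2 (0.0520 and 0.545), nor without any 1 of DMSO replicates 1 to 4 (0.0724 to 0.0913). Atp5g2 shares 40.2% of its 31-mers with other genes.

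**Figure D3:**
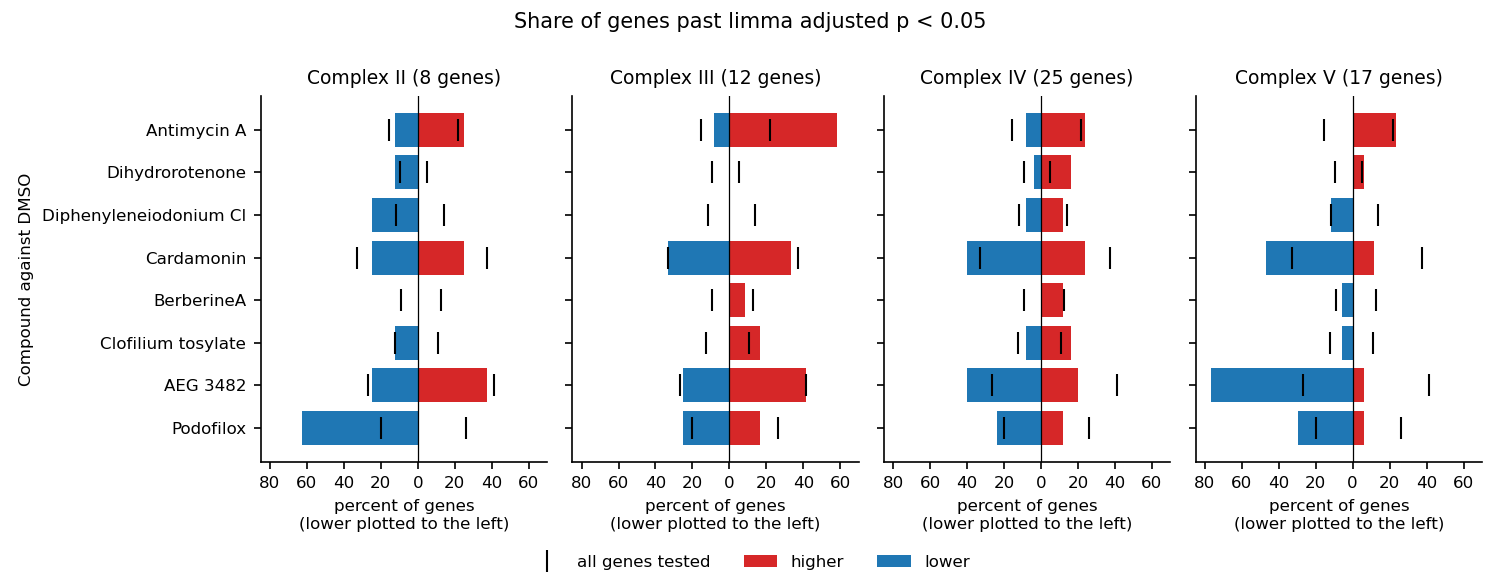
Percent of the genes of complexes II, III, IV and V (panels) called higher or lower at a limma adjusted p below 0.05 in each compound against DMSO, with the percent of all 13644 genes tested marked. Complex V in AEG 3482 has the most genes lower, 13 of 17. Complex III in Antimycin A has 7 of 12 higher, some of them lost under median-ratio scaling.

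Subunits and assembly factors had different counts in the compounds with the most calls. In Cardamonin 7 of 44 subunits rose and 19 fell, while of 18 assembly factors 7 rose and 5 fell. In AEG 3482 6 subunits rose and 24 fell, with a median of −0.16, and 8 assembly factors rose and 4 fell, with a median of 0.11. In Podofilox 1 assembly factor rose and 6 fell. Of all genes, 37.3% were higher and 33.0% lower in Cardamonin, and 41.3% and 26.8% in AEG 3482. The assembly factor counts in these compounds lay near those shares, while the subunits had fewer rises and more falls. The shares of all genes in Podofilox are given above. The raised subunits in Cardamonin include Cox6a2, a description only because of how it passed the filter. The difference between the classes was not tested.

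The summed TPM of the nuclear subunits was lower for complex IV in 3 compounds. DMSO libraries ran from 3305 to 3817 TPM, Cardamonin from 2993 to 3052 TPM, AEG 3482 from 2993 to 3228 TPM and Podofilox from 3123 to 3280 TPM, all below DMSO. For complex V the AEG 3482 libraries, at 3499.5 to 3563 TPM, lay below the 3819.7 to 4376 TPM of DMSO, and Cardamonin, at 3842 to 3959.6 TPM, lay within it. Complex II sums were 489 to 511 TPM in Podofilox, 506 to 517 TPM in AEG 3482 and 513 to 531 TPM in Clofilium tosylate. These groups lay below the 537 to 577 TPM of DMSO. Complex III sums in Cardamonin, 1622 to 1714 TPM, overlapped the 1425 to 1688 TPM of DMSO. No test was made on these sums.

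**Figure D4:**
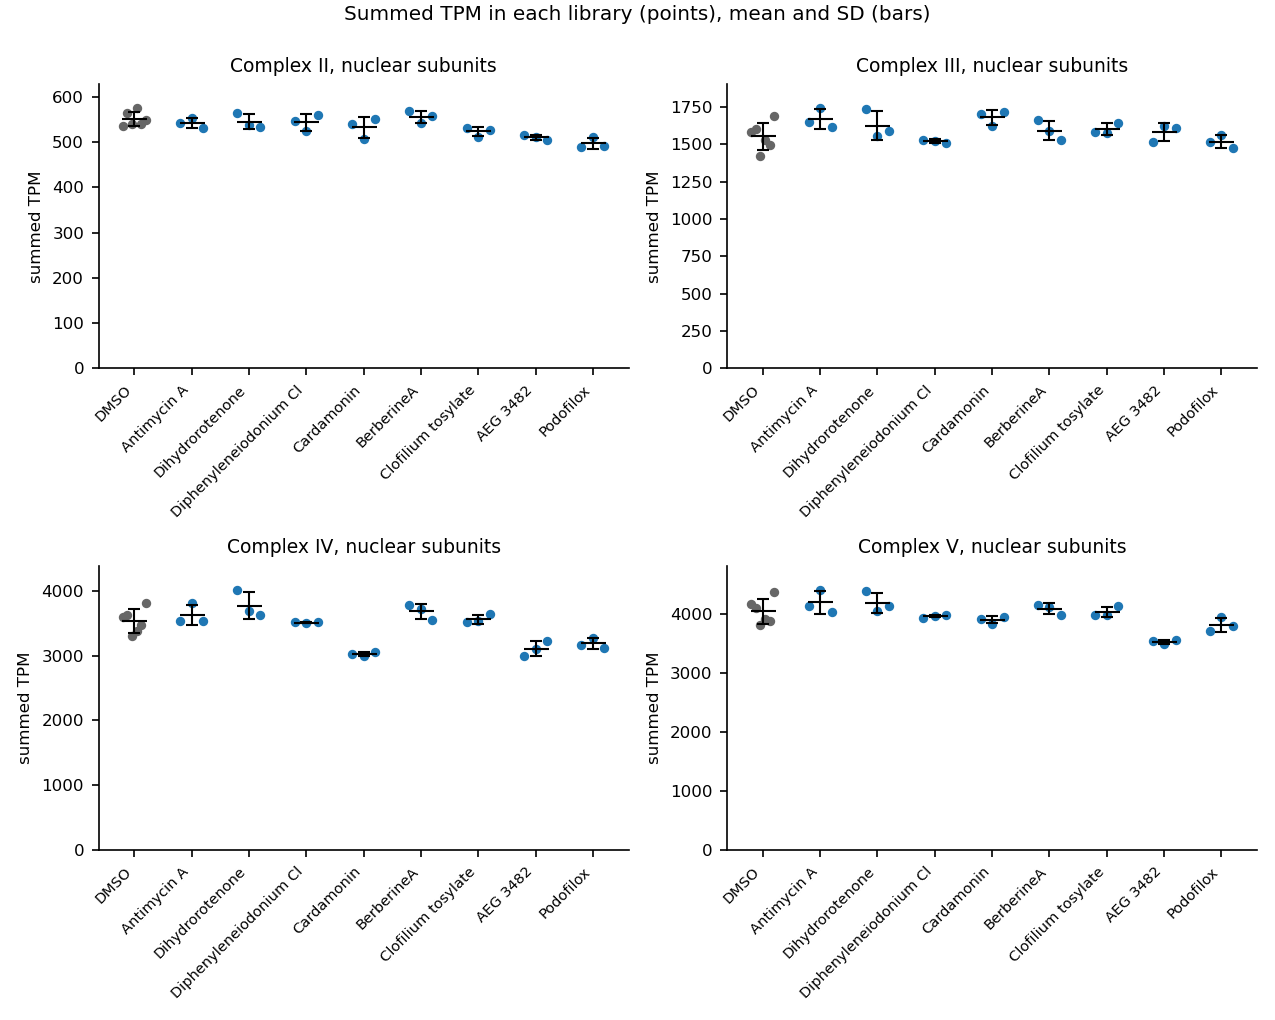
Summed TPM of the nuclear subunits of complexes II, III, IV and V (panels, y axis in TPM) in each library (points) of the 9 groups, with mean and SD (n = 6 for DMSO and 3 for each compound). Cardamonin, AEG 3482 and Podofilox are below all DMSO libraries for complex IV, and AEG 3482 for complex V.

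Compounds were compared directly in 4 pairs, with doses not given in the sources used here. Cardamonin and AEG 3482 differed in 30 members (all genes, 55.3%), 18 higher in Cardamonin (22.6%) and 12 lower (32.7%). Cox6b2 had the lowest value, −1.89 ± 0.15 (adjusted p = 5e-11). All 4 complex II assembly factors were lower in Cardamonin, from −0.12 for Sdhaf2 to −0.63 for Sdhaf1, while Sdhb was higher (0.41 ± 0.05). Cox15 (0.85 ± 0.18), Cox17 (0.53 ± 0.07) and Cycs (0.51 ± 0.15) were also higher in Cardamonin, as were 7 complex V genes, with 0 complex V genes lower. Cox6a2 is among the 18 at 1.15, but it reached the 1 TPM of the filter in the 3 libraries of Cardamonin and in 0 of AEG 3482, so this difference is a description only. Median-ratio scaling gave 21 higher and 7 lower members in this pair.

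**Figure D5:**
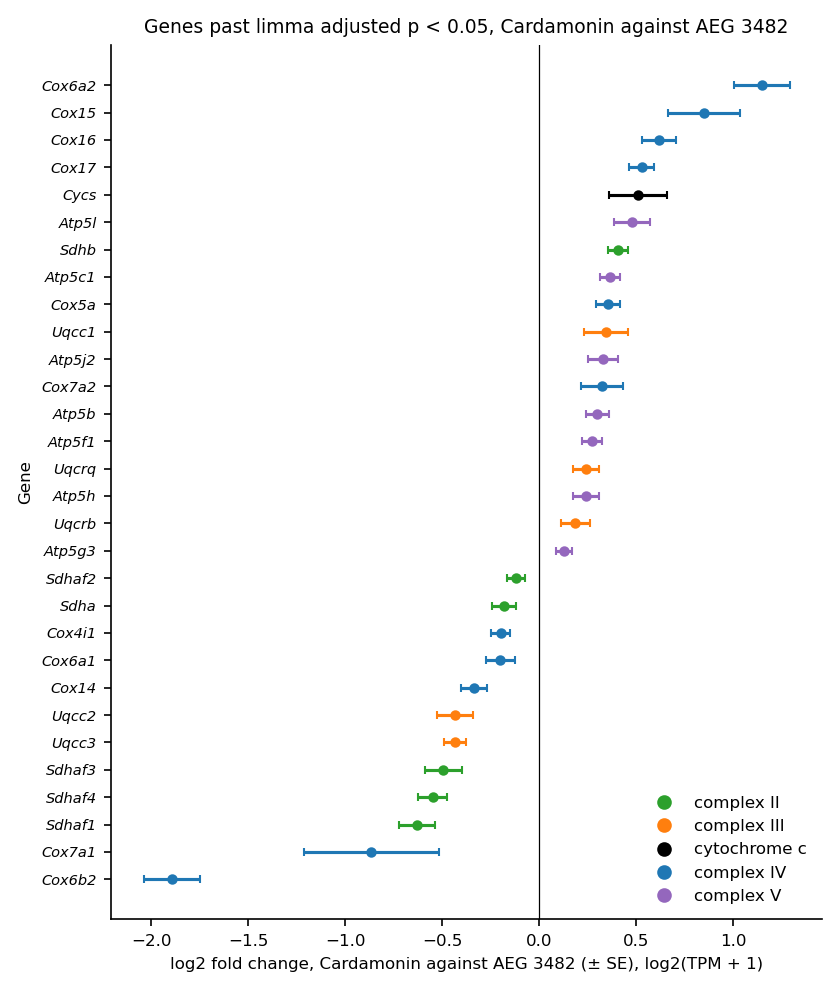
Log2 fold change of Cardamonin against AEG 3482 (x axis, log2(TPM + 1) scale, with SE, 3 libraries each) for the 30 genes past a limma adjusted p of 0.05, coloured by complex. Cox6b2 stands lowest at −1.89. Cox6a2, at 1.15, passed the filter only through groups where it is high, and the complex V genes shown are all on the positive side.

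The other 3 pairs showed fewer differences. Antimycin A and Dihydrorotenone, inhibitors of different complexes, differed in 5 members (15.5% of all genes, 11.6% higher and 3.91% lower). Cox5a, Cox17 and Uqcrc2 were higher in Antimycin A, by 0.22, 0.20 and 0.17, and Cox6c was lower (−0.27). The remaining gene is Cox6a2 (0.74), a description only for the reason given above. Without Antimycin A replicate 2 or Dihydrorotenone replicate 2 the count was 2, and the split was 1 higher and 2 lower under median-ratio scaling, 2 and 1 without the 20 most abundant genes, and 1 and 3 under quantile normalization or over nuclear protein-coding genes. Diphenyleneiodonium Cl and Dihydrorotenone differed in 1 member (3.68% of all genes, 3.11% higher and 0.572% lower), Cox6c, at −0.25 ± 0.06 (adjusted p = 0.0288), and in 0 without Dihydrorotenone replicate 1 or any 1 Diphenyleneiodonium Cl library. Antimycin A and Clofilium tosylate differed in 0 members by limma (5.21% of all genes, 3.85% higher and 1.36% lower), with 9 at an unadjusted p under 0.05 and 1 called with library weights (limma's arrayWeights) or without Antimycin A replicate 3 or Clofilium tosylate replicate 2.

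Other genes of the same pathways were counted from lists chosen by function. Of 46 nuclear complex I genes, Cardamonin raised 4 and lowered 16, AEG 3482 raised 5 and lowered 19, and Podofilox raised 1 and lowered 21, with medians of −0.06, −0.08 and −0.14. Of 77 mitochondrial ribosomal protein genes, Cardamonin raised 48 and lowered 8 (median 0.26), AEG 3482 raised 38 and lowered 17 (0.16), and Antimycin A raised 25 and lowered 2 (0.12). Among 17 further complex IV assembly factors and partners, 10 rose and 3 fell in Cardamonin, and 11 rose and 1 fell in AEG 3482, with a median of 0.38 in each. They include Lrpprc, which stabilises mitochondrial mRNA, at 38.2 ± 2.004 TPM in Cardamonin and 27.8 ± 0.732 TPM in AEG 3482 against 19.2 ± 1.89 TPM in DMSO (0.96 and 0.52, each ± 0.06), and Hccs, which attaches haem to cytochrome c (0.57 and 0.55, each ± 0.06). The 4 further complex V assembly genes rose in 3 cases in Cardamonin and 2 each in AEG 3482 and Antimycin A, and of 3 further complex III assembly genes 1 fell in each of Cardamonin, AEG 3482 and Dihydrorotenone and 1 rose in Podofilox. Of all genes, 70.3% were called in Cardamonin, 68.1% in AEG 3482 and 46.2% in Podofilox. The complex I share called in either direction was below this in Cardamonin and AEG 3482 and near it in Podofilox. By direction, the share of complex I genes that fell was above that of all genes, given above, in Podofilox and AEG 3482. In Cardamonin it was near that of all genes. The share of complex I genes that rose was below that of all genes in each of these compounds. Higher calls made up 37.3% of all genes in Cardamonin, 41.3% in AEG 3482 and 21.8% in Antimycin A. The mitochondrial ribosomal shares were above these. Lists of 3 or 4 genes are too short to be read against such shares. Differences between lists were not tested.

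Short transcripts are common among the members, with 28 of at most 1000 bases. Their medians were −0.14 in Cardamonin, −0.11 in Podofilox and −0.08 in AEG 3482, and those of the 35 longer members 0.01, −0.06 and −0.14. The 626 other protein-coding genes with such short transcripts had medians of −0.08, −0.08 and −0.03. The part of transcript length in the results was not tested. Without the 9 genes that share over 25% of their 31-mers with other genes, 12 members rose and 21 fell in Cardamonin, and 12 rose and 23 fell in AEG 3482.

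Of 9 regulators of respiratory chain genes past the filter, AEG 3482 raised 6 and lowered 1 (of all genes, 41.3% higher and 26.8% lower), Cardamonin raised 5 (37.3% higher) and Podofilox raised 3, near the 26.2% of all genes. Esrra, an orphan nuclear receptor, had 41.3 ± 2.10 TPM in AEG 3482 against 20.04 ± 1.59 TPM in DMSO (1.01 ± 0.09, adjusted p = 3.93e-10). Gabpa, the DNA-binding chain of GABP, had 19.2 ± 1.70 TPM there against 40.2 ± 4.82 TPM (−1.02 ± 0.09, adjusted p = 9.37e-11), while its partner Gabpb1 rose by 0.85. Gabpa overlaps Atp5j on the opposite strand, and Atp5j, at 279, 264 and 286 TPM in AEG 3482 against 271, 283 and 305 TPM in DMSO, did not pass the test there. Nrf1, whose motif is printed above, rose by 0.45 in AEG 3482.

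The 6 mitochondrially encoded subunits of complexes III, IV and V had other medians than the nuclear genes. In Antimycin A 4 fell and 0 rose (median −0.50), and in Dihydrorotenone 5 rose and 0 fell (0.31), beside medians of 0.05 and 0.04 for the nuclear members. In AEG 3482 5 fell and 0 rose (−0.31). Of all genes, 15.5% were lower in Antimycin A, 4.95% higher in Dihydrorotenone and 26.8% lower in AEG 3482. A list of 6 genes is short to be read against such shares. These differences between nuclear and mitochondrial genes were not tested.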

How the data were processed

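The authors deposited 1 table of TPM for 30 libraries. Per the submitters' processing notes, reads were checked with FastQC and quantified with kallisto 0.43.1 against mm10, and per the series text transcripts were summed to genes with tximport. TPM fixes the library total, so a rise of abundant genes lowers the rest, and kallisto divides reads that fit several genes. The series text gives 5 DMSO replicates and the labels 6, all used. Gene symbols came from GENCODE M21 (98.5% of 29861 genes matched), and 0 columns had an unknown sample.

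The 13644 genes that reached 1 TPM in 3 or more libraries were fitted on log2(TPM + 1) with limma 3.58.1 (R 4.3.3, intensity trend, 1 mean per group, all libraries), with Benjamini-Hochberg adjustment per comparison and a threshold of 0.05. The fit was tested on simulated data. The members and lists were chosen with earlier results of these data known. Genes named by rule were the 3 highest rises and 3 largest falls per compound among called members whose treated libraries all lay outside the DMSO range and whose higher group averaged 5 TPM or more, the tissue or paralogue forms of complex IV and V subunits, and a fixed list of core subunits. Others were chosen by role after their values were seen. Same-numbered libraries did not deviate together in every pair of any comparison, so numbers were not taken to pair libraries. Alternatives were 2 pseudocounts, 2 filters, 4 scalings, other fits and leaving out each library. Shared 31-mers were counted over GENCODE transcripts, and promoters came from RefSeq.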

Additional observations from a re-analysis of the deposited data

Results flagged for a closer look

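A test for a library that stands apart (Dixon's, at its critical value for 6 libraries) was made on the DMSO levels of 68 genes and sums, of which chance alone would mark about 1 in 20, and it marked 3. Uqcc3 was 42.6 TPM in DMSO replicate 4, below the next library at 44.4 TPM. Cox17 was 106.9 TPM in DMSO replicate 1, above the other 5. Cox20 was 26.1 TPM in DMSO replicate 1, above the next at 20.6 TPM.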

How the results depend on the processing

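In the changed-member counts, median-ratio scaling gave 12 in Antimycin A, 3 in BerberineA, 6 in Clofilium tosylate and 3 in Antimycin A against Dihydrorotenone. Quantile normalization gave 3 in Dihydrorotenone, rescaling over nuclear protein-coding genes 8 in BerberineA, and rescaling without the 20 most abundant genes 3 in Antimycin A against Dihydrorotenone. Fits of the compared groups alone gave 2 in Dihydrorotenone, 3 in BerberineA, 5 in Clofilium tosylate and 0 in Diphenyleneiodonium Cl against Dihydrorotenone. Library weights gave 13 in BerberineA, 10 and 4 in the pairs of Antimycin A and Diphenyleneiodonium Cl with Dihydrorotenone, and 1 in Antimycin A against Clofilium tosylate, where a pseudocount of 5 and a fit without trend also gave 1.

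Median member log2 changes under median-ratio scaling, quantile normalization and rescaling without the 20 most abundant genes were 0.018, 0.0030 and 0.012 in Antimycin A, −0.025, −0.027 and −0.030 in Diphenyleneiodonium Cl, −0.090, −0.14 and −0.084 in Cardamonin and −0.21, −0.22 and −0.16 in AEG 3482. The median was −0.12 in Podofilox under median-ratio scaling, 0.010 in Diphenyleneiodonium Cl over nuclear protein-coding genes and 0.064 in Antimycin A with library weights. Quantile normalization reversed the sign of 4 genes in AEG 3482: Sdhd (−0.13), Uqcc3 (−0.014), Uqcrc1 (−0.16) and Uqcrfs1 (−0.016). No call was reversed. Those of Uqcc3 and Uqcrfs1 were lost (limma adjusted p = 0.837 and 0.824), and Sdhd and Uqcrc1 were called only under this normalization (0.0141 and 0.00623). The cause was not tested.

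Leaving out 1 library at a time moved the median to between 0.024 and 0.076 in Antimycin A, −0.024 and 0.011 in Diphenyleneiodonium Cl, −0.077 and −0.025 in Cardamonin and −0.0017 and 0.051 in BerberineA. The same step gave counts of 37 to 44 in AEG 3482, 15 to 27 in Antimycin A, 5 to 8 in BerberineA, 34 to 39 in Cardamonin, 4 to 12 in Clofilium tosylate, 1 to 9 in Dihydrorotenone, 3 to 11 in Diphenyleneiodonium Cl and 17 to 26 in Podofilox. In the direct pairs the counts were 0 to 1 for Antimycin A against Clofilium tosylate, 2 to 5 for Antimycin A against Dihydrorotenone, 24 to 31 for Cardamonin against AEG 3482 and 0 to 1 for Diphenyleneiodonium Cl against Dihydrorotenone.

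With the replicate number as a block, which leaves DMSO replicates 1 to 3 as partners, the counts were 21 in Antimycin A, 5 in Dihydrorotenone, 6 in Diphenyleneiodonium Cl, 37 in Cardamonin, 5 in BerberineA, 11 in Clofilium tosylate, 41 in AEG 3482 and 23 in Podofilox. The median in Antimycin A was 0.078 with the block. The numbers do not pair the libraries by the check in the processing section. TPM carries no depth, so the precision of low genes such as Cox6a2 cannot be given beyond the spread of libraries.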
